A study of Mus musculus with 20 samples.

Results

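Erythroblast cultures treated with interleukin 6 (IL-6) were compared between the collection points named D2 and D1, to describe which maturation changes took place under the cytokine and which transcripts of myeloid cells did not fall. The arrays were chosen by their labels alone: 2 arrays titled D2-IL6 and 2 titled D1-IL6, 4 of the 20 arrays of the series. The cells came from marrow of healthy female wild-type C57BL/6 mice, depleted of cells bearing mature lineage markers, and were grown in medium with erythropoietin. Recombinant mouse IL-6 at 100 ng/mL was present from the start of culture in the D1-IL6 and D2-IL6 groups. The D1-Control and D2-Control groups, again with 2 arrays each, had the same medium without IL-6 and served for the matching comparison. All other arrays of the series are titled DWT or DKO, followed by I, II+III or IV, and carry an age in years. Those arrays entered only the alternative fit of all 20 arrays, which takes each gene's spread from them too. The series names 2 mice as the source of the cultured cells. The labels of the cultured arrays give neither the hours behind D1 and D2 nor the age of the mice. These labels tie no array to a mouse, so the p-values measure only the spread between these arrays, which may be technical.

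Erythropoietin drives committed progenitors through a few divisions, during which they shut down Kit, build haem and the red cell membrane skeleton, shrink their protein synthesis machinery and prepare to expel the nucleus. The same lineage-depleted marrow also holds progenitors of granulocytes, monocytes and basophils, whose transcripts are lost as a culture turns erythroid. IL-6 signals through its receptor and the shared subunit gp130 to STAT3 and is known as a driver of the acute phase response and of myeloid cell production.

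The deposited values are log2 signals of robust multi-array averaging (RMA), in which a difference of 1 is a doubling. Replicate arrays correlated at r = 0.982 to 0.994 across genes, and 34.9% to 39.1% of the genes tested were brighter than background, here the 95th percentile of an array's background probe sets (7.35 to 7.71). The median signal of the positive controls was 11.4 to 11.5 at D1 and 10.99 to 11.28 at D2. Cells labelled as erythroblasts carried strong erythroid signal at both points. Slc4a1, the red cell anion exchanger, read 17.06 and 16.92 in the D1-IL6 arrays and 17.88 and 17.77 in the D2-IL6 arrays. Myeloid signal was present beside it at D1, with the myeloperoxidase gene Mpo at 15.94 and 16.01. In bulk RNA, fewer cells of a type and less RNA per cell cannot be told apart.

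Between D1 and D2 the IL-6 cultures changed widely, and mostly as the control cultures did. In limma, 2543 of 19572 named probe sets rose with IL-6 (13%) and 3950 fell (20.2%) at an adjusted p under 0.05. In control 3855 rose (19.7%) and 4608 fell (23.5%). The comparisons share no arrays, but they share each gene's estimate of spread, so their calls are not independent. Among the probe sets that rose with IL-6, 1920 also rose in control, 75.5% of the IL-6 list and 49.8% of the control list. Of the falls with IL-6, 3512 were shared, 88.9% of the IL-6 list and 76.2% of the control list. A further 37 probe sets rose with IL-6 and fell in control, and 0 did the reverse. The median change over all named probe sets was 0.09 with IL-6 and 0.17 in control. Of the rises with IL-6, 1015 lay near background in every IL-6 array, and 1611 had a log2 size of at least 1. Centring each array on its median above background moved the all-probe-set median by 0.25 with IL-6, and the IL-6 calls then split into 4499 up and 3176 down (58.6% up, against 39.2% up without centring). In control that centring moved the median by 0.45, and the calls split into 9357 up and 3359 down (73.6% up, against 45.6%). Small changes are therefore read relative to these shifts. Counts of list members given below stand beside the shares of all named probe sets, 13% up and 20.2% down with IL-6. In control these shares were 19.7% and 23.5%.

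A test of the difference itself, the IL-6 change minus the control change, passed upward for 229 probe sets (1.17%) and downward for 3 (0.0153%), 1.19% in all. This contrast equals the IL-6 effect at D2 minus that at D1. Of the 229, 223 fell in control. With IL-6, 155 of those had no call, 35 fell too, and 33 rose. A gene was counted as failing to fall if it fell in control, was not called lower with IL-6, and passed this test upward. This held for 188 probe sets (0.961%). Of these, 43 were in the 10 myeloid lists described below and 145 were in none of those lists.

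**Figure D1:**
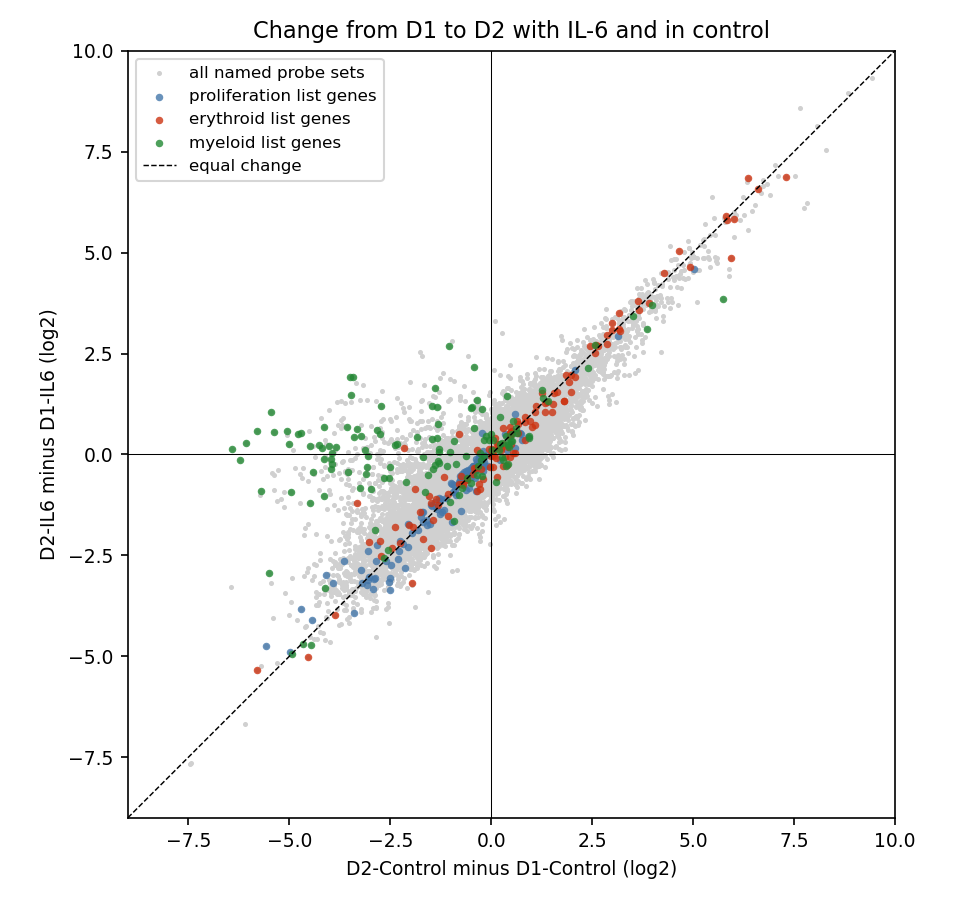
The D2 minus D1 change (log2) of every named probe set in control cultures (horizontal axis) is plotted against that in IL-6 cultures (vertical axis), with genes of the erythroid, proliferation and myeloid lists coloured and a dashed line of equal change. Erythroid and proliferation genes lie mostly along the line, with exceptions such as the iron handling gene Aco1 (-1.21 with IL-6, -3.31 in control). Many myeloid genes lie near 0 on the IL-6 axis and as low as -6.43 on the control axis.

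Genes of terminal erythroid maturation rose strongly with IL-6. Of 23 measured members of that list, 18 rose and 1 fell, with a median of 3.08, beside 18 and 2 with a median of 3.0 in control. Xpo7 encodes an exportin needed for nuclear condensation of erythroblasts. It read 10.71 and 11.18 in the D1-IL6 arrays and 17.86 and 17.76 in the D2-IL6 arrays. The rise was 6.87 ± 0.19 (SE, n = 2 against 2, limma adjusted p = 4.91e-09). The ubiquitin-conjugating enzyme gene Ube2o, which clears ribosomes and other proteins from reticulocytes, went from 10.86 and 10.74 to 16.70 and 16.55. Trim58, a ubiquitin ligase that acts on dynein before enucleation, went from 8.75 and 8.33 to 14.65 and 14.26. Both genes rose in all D2 arrays far beyond the spread between replicates, by 5.83 and 5.92. Bpgm, whose enzyme makes 2,3-bisphosphoglycerate, rose by 6.57, the cytoplasmic poly(A) polymerase gene Tent5c by 5.81, and Gadd45a, a growth arrest gene, by 5.05. Genes of autophagy and mitochondrial clearance rose as well, Ulk1 by 4.87 and the mitophagy receptor gene Bnip3l by 2.72. The translation regulator gene Cpeb4 rose by 3.08 and the E2 enzyme gene Ube2l6 by 3.50. The member that fell was Car1, a carbonic anhydrase gene of early erythroid cells (fell by 2.32). In control the changes of Xpo7, Ube2o, Trim58, Bpgm and Gadd45a were 7.29, 6.01, 5.82, 6.60 and 4.65.

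Haem synthesis enzymes did not move as one group. With IL-6, 4 of 14 rose and 7 fell, and in control 6 rose and 6 fell. The erythroid first enzyme of the pathway, Alas2, read 16.12 and 15.97 at D1-IL6 and 18.02 and 18.00 at D2-IL6, up by 1.97 ± 0.07 (limma adjusted p = 1.94e-08), against 1.98 in control. Later enzymes rose with it, Urod by 1.56 and the iron-inserting Fech by 1.31. Alad, the second enzyme, fell by 0.99, the porphyrin transporter gene Abcb6 by 2.30 and the mitochondrial protein gene Tmem14c by 1.43. Alas1, the form of the first enzyme used outside erythroid cells, fell by 2.17. Of 14 iron handling genes 2 rose and 7 fell with IL-6, with a median of -0.44. In control 2 rose and 8 fell, with a median of -1.14. The ferritin autophagy receptor gene Ncoa4 rose by 2.52, while the endosomal ferrireductase gene Steap3 fell by 5.35 and the second transferrin receptor gene Tfr2 by 3.97. Tfrc, the main transferrin receptor gene, changed by -0.09 ± 0.11 (adjusted p = 0.57 in limma) and turned to 0.16 after centring. Of the globin genes only 3 embryonic ones were measured under a single symbol, all near background in every array, so globin output is not described here.

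Membrane genes rose by smaller steps. Of 22 measured members 12 rose and 5 fell with IL-6, with a median of 0.55, and 11 rose and 3 fell in control, with a median of 0.47. Slc4a1 rose by 0.84 ± 0.06 (limma adjusted p = 3.56e-06), the ankyrin gene Ank1 by 0.75, the protein 4.2 gene Epb42 by 1.28, the tropomodulin gene Tmod1 by 1.52, the amino acid transporter gene Slc43a1 by 1.53 and the Dombrock blood group gene Art4 by 3.11. The water channel gene Aqp1 fell by 1.74 and the urea transporter gene Slc14a1 by 1.62. Restricting calls to a log2 size of at least 1 left 4 members that rose, as did a fit of all 20 arrays of the series.

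Erythroid regulators moved in both directions. With IL-6, 6 of 21 rose and 10 fell, and in control 7 rose and 10 fell. Nfe2, a late erythroid factor gene, read 11.46 and 11.58 at D1-IL6 and 14.49 and 14.64 at D2-IL6, up by 3.05 ± 0.16 (limma adjusted p = 3.12e-07). Foxo3, which drives late maturation and antioxidant genes, rose by 2.95, Gata2, a factor gene of progenitors, by 2.68, and E2f2, a cell cycle factor gene of late erythroblasts, by 1.05. Myb, which holds progenitors in cycle, read 11.70 and 11.48 at D1-IL6 and 5.97 and 7.17 at D2-IL6, where both arrays lay near background. It fell by at least 3.92. The repressor gene Bcl11a fell by 2.18, the GATA1 partner gene Ldb1 by 2.51, the repressor gene Gfi1b by 1.25 and Nfia by 3.17. Klf1, the main activator of erythroid genes, fell by 0.72 ± 0.13 (limma adjusted p = 0.0014), and Gata1 changed by -0.28 ± 0.23 (adjusted p = 0.40), or 0.18 after quantile normalization. For Gata2, Myb and Klf1 the control changes were 2.65, -4.54 and -0.81.

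Gata2 read 10.31 and 10.45 in the D1-IL6 arrays and 13.11 and 13.02 in the D2-IL6 arrays, so the D2 arrays were the higher ones. Kit, the stem cell factor receptor gene lost early in erythroid maturation, went the other way, from 12.99 and 12.81 to 5.92 and 4.55. Both D2-IL6 values lay near background, so the fall was at least 5.24, and in control at least 5.62.

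Genes of the erythropoietin pathway gave similar counts with IL-6 and in control. Of 12 genes 5 rose and 3 fell with IL-6, against 5 and 2 in control. Bcl2l1, which encodes the survival protein BCL-XL, read 9.59 and 8.95 at D1-IL6 and 16.17 and 16.04 at D2-IL6. It rose by 6.84 ± 0.22 (limma adjusted p = 1.27e-08), against 6.36 in control. The STAT5 feedback gene Cish rose by 3.57 and the kinase gene Pim1 by 2.73. Epor, the erythropoietin receptor gene, changed by -0.76 ± 0.21 (limma adjusted p = 0.017), and that call ended when D1-IL6 replicate 1 (adjusted p = 0.054), D1-IL6 replicate 2 (0.13) or D2-IL6 replicate 1 (0.060) was left out. It also ended with quantile normalization (-0.37, adjusted p = 0.21) and with centring (-0.51, adjusted p = 0.11). Among 16 antioxidant genes 8 rose and 3 fell. The haem oxygenase gene Hmox1 rose by 4.65, the sulfiredoxin gene Srxn1 by 4.49 and catalase, Cat, by 1.80, and the thioredoxin gene Txn1 fell by 1.10.

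Promoter letters are shown for an enzyme and a ubiquitin ligase gene that rose together, Alas2 and Trim10 (2.69 ± 0.12, limma adjusted p = 1.07e-07), because both hold the letters AGATAA, a core bound by GATA factors. Each line gives the 250 bases before the RefSeq start (GRCm38.p6, plus strand, 5′ to 3′), with AGATAA or its reverse complement in capitals. The windows are chrX:150547167-150547416 for Alas2 and chr17:36869324-36869573 for Trim10.
Alas2: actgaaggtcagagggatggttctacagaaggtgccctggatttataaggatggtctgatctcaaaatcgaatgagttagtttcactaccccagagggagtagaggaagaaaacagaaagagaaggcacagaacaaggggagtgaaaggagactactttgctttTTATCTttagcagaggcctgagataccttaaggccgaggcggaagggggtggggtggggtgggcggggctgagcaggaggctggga
Trim10: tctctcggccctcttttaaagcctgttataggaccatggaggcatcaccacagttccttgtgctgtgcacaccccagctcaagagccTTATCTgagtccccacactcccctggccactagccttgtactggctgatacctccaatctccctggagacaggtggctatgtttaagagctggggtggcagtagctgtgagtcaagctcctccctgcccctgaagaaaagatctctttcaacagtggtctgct
Searched on both strands, AGATAA stood in 11.4% of the 27025 genes with a promoter entry. It stood in 1 of the 15 terminal maturation genes with an entry, 5 of 17 red cell membrane genes and 1 of 12 haem synthesis genes, so most members of these lists do not hold these letters in the window. A match is a description of the letters only.

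**Figure D2:**
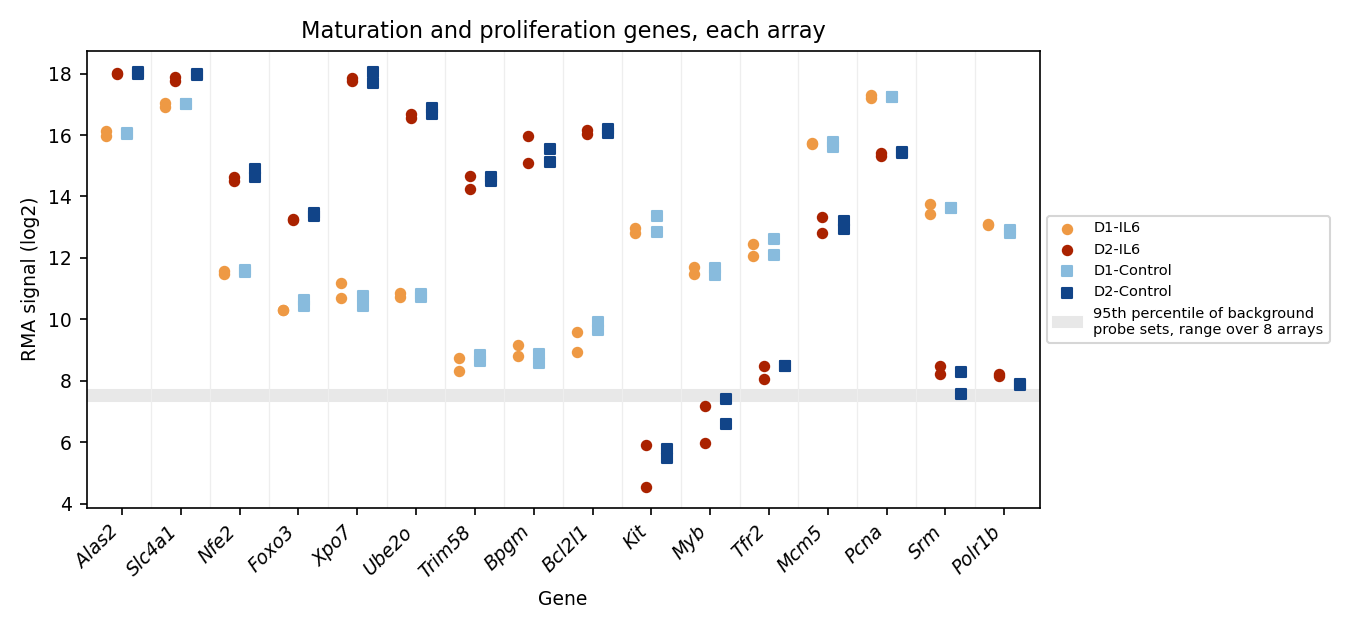
RMA signal (log2, vertical axis) of 16 maturation and proliferation genes (horizontal axis) in each of the 8 cultured arrays, with circles for IL-6 and squares for control, light for D1 and dark for D2, and the background level as a grey band. The D1 and D2 arrays separate in every gene shown, and the IL-6 and control arrays of a point lie close together, as for Alas2 near 16 at D1 and 18 at D2.

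Proliferation genes fell widely with IL-6. Of 23 DNA replication genes 22 fell and 0 rose, with a median of -2.59, and 22 fell in control, with a median of -2.31. The helicase subunit gene Mcm5 read 15.70 and 15.74 at D1-IL6 and 12.82 and 13.32 at D2-IL6, a fall of 2.65 ± 0.17 (limma adjusted p = 9.09e-07). Pcna, the replication clamp gene, fell by 1.87 and cyclin E1, Ccne1, by 3.11. Of 21 genes of G2 and M phase 16 fell and 0 rose, with a median of -1.07, and 13 fell in control. After centring 12 fell with IL-6, and 3 when all 20 arrays of the series shared 1 fit. Mki67, the Ki-67 gene, fell by 0.31 ± 0.07 (limma adjusted p = 0.0042), with a value of -0.06 after centring, when it was no longer called (adjusted p = 0.60). Of 12 genes of G1 cyclins and CDK inhibitors 3 rose and 4 fell, not far from the 13% and 20.2% of all named probe sets. The cell cycle inhibitor genes Cdkn1b and Cdkn1a rose by 4.60 and 2.93.

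Growth genes fell as well. All 18 measured genes of MYC and ribosome biogenesis fell with IL-6 and in control, with medians of -2.81 and -2.70, and 17 fell with IL-6 after quantile normalization or centring. Myc itself read 13.28 and 13.45 at D1-IL6 and 11.18 and 12.13 at D2-IL6, a fall of 1.71 ± 0.28 (limma adjusted p = 8.68e-04). The RNA polymerase I subunit gene Polr1b fell by 4.89 and the nucleolar methyltransferase gene Nop2 by 4.74, both among the 10 largest falls. Srm, the spermidine synthase gene, and Pold1, the catalytic subunit gene of DNA polymerase delta, were in that group too, at -5.24 and -5.17. Of 62 cytosolic ribosomal protein genes 42 fell, with a median of -0.35, which became 12 falls and a median of -0.10 after centring, where the control median turned to 0.05. Across the 8 erythroid lists (125 genes) and the 5 proliferation lists (136 genes), 0 members passed limma's test of a difference between IL-6 and control. At an unadjusted p under 0.05 they numbered 10 and 8. Over all 19572 named probe sets 1.19% passed and 1567 had an unadjusted p under 0.05, so few calls would be looked for in these lists. A value that misses the threshold does not show an equal change. For Alas2 the difference was -0.01, with a 95% interval of -0.22 to 0.20. For the iron handling gene Aco1 it was 2.11, with an interval of 1.12 to 3.09 (limma adjusted p = 0.056). Both D2-Control arrays of Aco1 lay near background.

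Several basophil and eosinophil transcripts fell both with IL-6 and in control. Prss34, a basophil protease gene, read 13.15 and 14.00 at D1-IL6 and 5.95 and 5.90 at D2-IL6, a fall of at least 5.91, beside at least 6.54 in control. Mcpt8, another basophil protease gene, read 12.55 and 13.68, then 6.32 and 6.57, a fall of at least 5.45. Of 10 mast cell and basophil genes 4 fell and 0 rose, and in control 5 fell and 1 rose. Of 7 eosinophil genes 3 fell and 0 rose, both with IL-6 and in control. In all 8 arrays 4 of the mast cell and basophil genes and 3 of the eosinophil genes lay near background. The eosinophil granule gene Prg2 fell from 12.15 and 12.73 to 7.56 and 8.19, by 4.56 ± 0.36 (limma adjusted p = 4.46e-06), against 4.40 in control. Of these 17 basophil, mast cell and eosinophil genes 0 passed limma's difference test, and 0 had an unadjusted p under 0.05. Over all 19572 named probe sets 1.19% passed it and 1567 had an unadjusted p under 0.05, so a list this small would rarely hold a call.

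Primary granule genes of granulocyte progenitors mostly fell too. Of 11 members 8 fell and 1 rose with IL-6, with a median of -2.36, and 8 fell and 1 rose in control, with a median of -2.66. With all 20 arrays in 1 fit 4 fell with IL-6. Mpo read 15.94 and 16.01 at D1-IL6 and 11.33 and 11.24 at D2-IL6, a fall of 4.69 ± 0.26 (limma adjusted p = 3.51e-07), and the control fall was 4.67. The cathepsin G gene Ctsg fell from 12.59 and 12.53 to 7.24 and 8.01, by 4.93, against 4.94. The proteinase 3 gene Prtn3 fell by 2.56, Ms4a3, a marker gene of granulocyte and monocyte progenitors, by 4.73 and Plac8 by 2.36, and control falls were 2.66, 4.46 and 2.57. At D2 these genes did not all reach background. Mpo and Plac8 (13.49 and 12.99) stayed well above it with IL-6.

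Members of this list that differed from control were 2. The neutrophil elastase gene Elane fell by 2.94 with IL-6 and by 5.49 in control, a difference of 2.55 ± 0.48 (limma adjusted p = 0.032). Its D2-IL6 arrays read 12.48 and 13.14 and its D2-Control arrays 8.84 and 9.78, with no overlap. That call ended without D1-Control replicate 2 (adjusted p = 0.16), D1-IL6 replicate 1 (0.21), D1-IL6 replicate 2 (0.12), D2-Control replicate 1 (0.082) or D2-IL6 replicate 2 (0.11). Ctsc, which encodes the protease that activates the granule serine proteases, did not fall. It read 12.09 and 12.15 at D1-IL6 and 12.17 and 12.00 at D2-IL6, a change of -0.03 ± 0.34 (95% interval -0.79 to 0.73), while in control it went from 9.36 and 10.29 to 7.10 and 6.44, a fall of at least 2.34. The difference was 3.02 ± 0.48 (limma adjusted p = 0.012) and its call ended without D1-Control replicate 2 (0.055), D1-IL6 replicate 1 (0.093) or D1-IL6 replicate 2 (0.073).

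Of the myeloid lists, the monocyte list held the most genes that failed to fall with IL-6, 17 of 19. Of these 19 measured members 18 fell in control, with a median of -4.13, whereas 1 fell and 4 rose with IL-6, with a median of 0.25, and 18 passed the difference test upward. The mean level of the list was 11.41 and 11.62 in the D1-IL6 arrays, 11.98 and 11.68 in the D2-IL6 arrays, 10.54 and 11.18 in the D1-Control arrays and 6.88 and 6.75 in the D2-Control arrays. Whether these markers have a part in the changes of other genes was not tested. Several members entered this list from earlier results of these data, so its counts are not independent evidence of its direction. Csf1r, the receptor gene of macrophage colony-stimulating factor, read 12.30 and 12.42 at D1-IL6 and 13.03 and 12.71 at D2-IL6, a change of 0.51 ± 0.24 (95% interval -0.03 to 1.04, limma adjusted p = 0.13). In control it went from 11.84 and 12.23 to 7.36 and 7.12. The difference of the changes was 5.30 ± 0.34 (limma adjusted p = 4.73e-05), and after centring Csf1r passed as a rise of 0.76 with IL-6.

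Lgals3, the galectin 3 gene, read 13.49 and 14.30 at D1-IL6 and 14.11 and 13.96 at D2-IL6, so that the groups overlapped, and in control 12.85 and 14.25 became 7.78 and 6.46. Its difference of 6.57 ± 0.69 (limma adjusted p = 0.0010) was the highest among genes named by the rule, and it was not called when all 20 arrays of the series shared 1 fit (adjusted p = 0.74). Emb, a cell adhesion gene, read 14.83 and 15.07, then 15.04 and 14.56 with IL-6, and fell by 6.21 in control. Pld4, an endolysosomal nuclease gene, read 12.48 and 12.94, then 13.04 and 12.95 with IL-6, and fell by at least 4.87 in control. The adaptor gene Tyrobp (DAP12) read 12.98 and 13.15, then 13.81 and 13.43 with IL-6, and fell by 5.37 in control. Emb, Pld4 and Tyrobp differed between IL-6 and control by 6.06, 6.35 and 5.93, each with a limma adjusted p of 4.73e-05. The chemokine receptor gene Ccr2 changed by 0.42 with IL-6 and by -3.39 in control, and the integrin gene Itgam by 1.21 and -2.73.

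Some monocyte members carried a call of their own with IL-6, of modest size. The lysozyme gene Lyz2 read 14.13 and 14.17 at D1-IL6 and 14.73 and 14.94 at D2-IL6, a rise of 0.68 ± 0.19 (limma adjusted p = 0.019), and in control it fell by 4.13. Ms4a6d rose by 1.47 (adjusted p = 0.021). Ly6c2, a surface marker gene of inflammatory monocytes, was the member that fell, by 0.91 (adjusted p = 0.037), from 14.98 and 15.36 to 14.16 and 14.36, against 5.69 in control. Without D1-IL6 replicate 1, D1-IL6 replicate 2, D2-IL6 replicate 1 or D2-IL6 replicate 2 the adjusted p was 0.070, 0.22, 0.15 and 0.065 for Ly6c2 and 0.10, 0.093, 0.056 and 0.079 for Ms4a6d. The rise of Lyz2 was not called when D1-IL6 replicate 1 (0.10), D1-IL6 replicate 2 (0.087) or D2-IL6 replicate 2 (0.090) was left out. For Itgam the call of the IL-6 rise (adjusted p = 0.033) ended without D1-IL6 replicate 1 (0.22), D1-IL6 replicate 2 (0.059) or D2-IL6 replicate 1 (0.22).

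**Figure D3:**
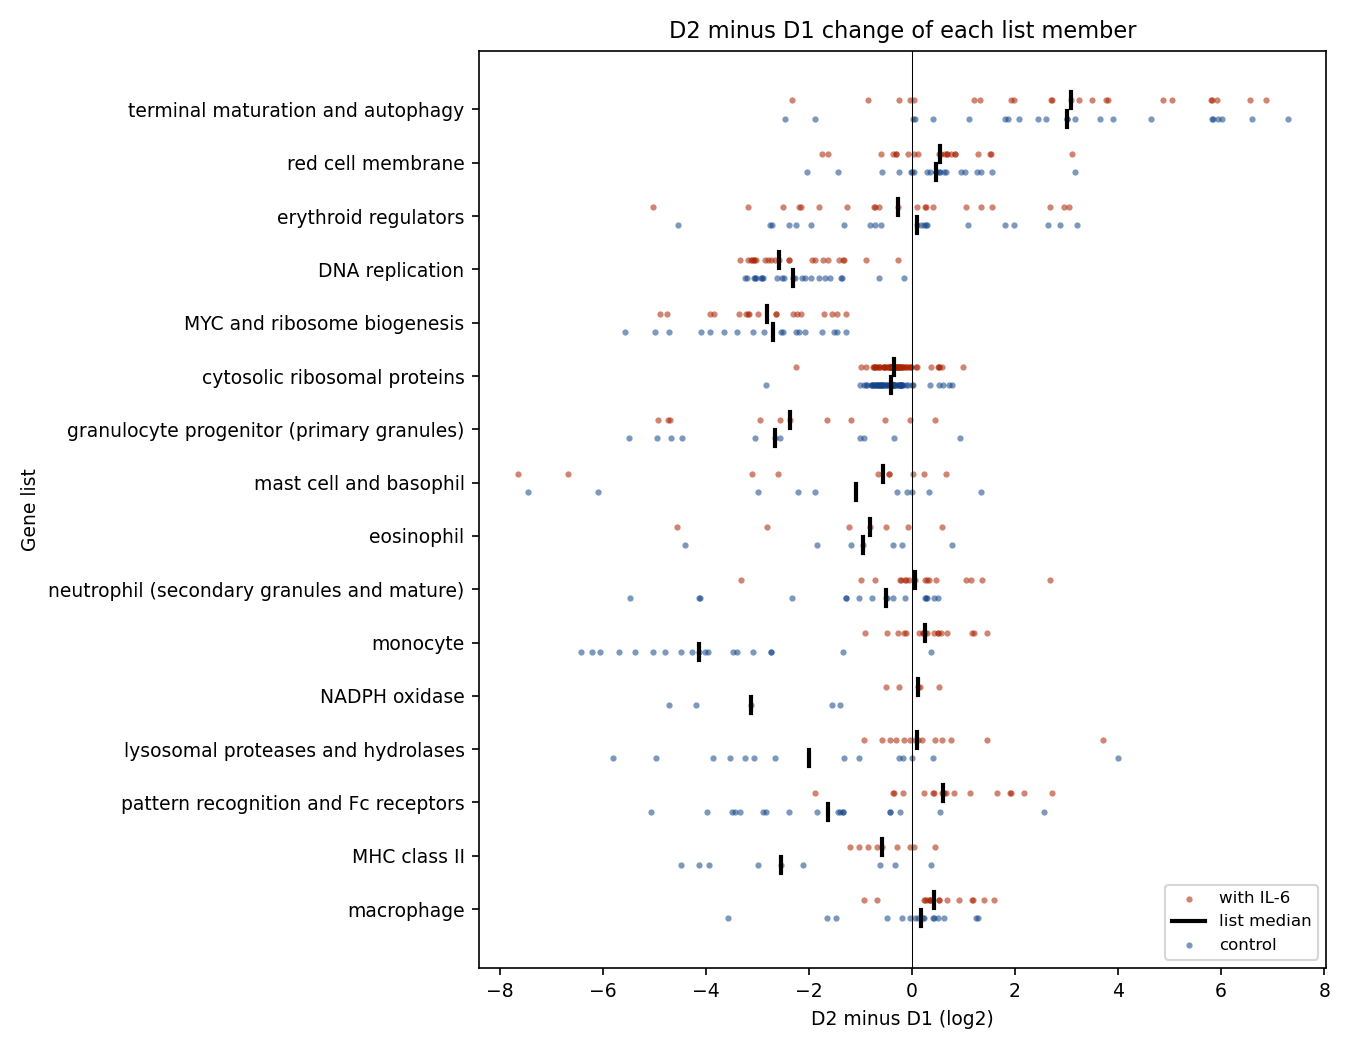
The D2 minus D1 change (log2, horizontal axis) of each measured member of 16 gene lists (vertical axis), red with IL-6 and blue in control, with a black bar at each list's median. The red and blue medians lie close in the erythroid, proliferation, primary granule, basophil and eosinophil lists, and apart in the monocyte list (0.25 and -4.13) and the NADPH oxidase list (0.12 and -3.12).

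Genes of the phagocyte NADPH oxidase, which makes superoxide, behaved likewise. Of 5 measured subunit genes limma called 0 with IL-6 (1 at an unadjusted p under 0.05), and 5 fell in control. Cyba, the p22phox gene, read 13.56 and 13.62 at D1-IL6 and 13.65 and 13.83 at D2-IL6, and in control 12.57 and 13.51 became 9.09 and 8.60. The difference was 4.35 ± 0.41 (limma adjusted p = 5.53e-04). Cybb, the gp91phox gene, read 13.90 and 14.47, then 14.92 and 14.50 with IL-6, and in control 13.69 and 14.34, then 10.74 and 7.86, where the D2 arrays lay far apart. Its difference was 5.24 ± 0.97 (limma adjusted p = 0.026), a call that ended without D1-Control replicate 1 (0.057), D1-Control replicate 2 (0.14), D1-IL6 replicate 1 (0.17), D1-IL6 replicate 2 (0.091), D2-IL6 replicate 1 (0.10) or D2-IL6 replicate 2 (0.067). Of the 5 genes 3 passed the difference test, and 1 did without D1-Control replicate 2, without either D1-IL6 array or without either D2-IL6 array. The subunit gene Rac2 changed by -0.50 ± 0.21 with IL-6 (adjusted p = 0.099) and passed as a fall of 0.77 without D1-IL6 replicate 1.

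Lysosomal hydrolase genes moved in several ways. Of 14 members 2 rose and 2 fell with IL-6, 9 fell and 1 rose in control, and 7 passed the difference test upward. Ctsh, the cathepsin H gene, read 12.20 and 12.30 at D1-IL6 and 13.10 and 12.56 at D2-IL6, and in control 11.85 and 12.30 became 6.70 and 5.86, a fall of at least 4.59. Its difference was 6.37 ± 0.46 (limma adjusted p = 9.84e-05). The progranulin gene Grn changed by -0.32 with IL-6 and fell by 3.07 in control. Gm2a, which encodes the ganglioside activator protein of lysosomes and is in no list, changed by 0.49 with IL-6 and fell by 5.07 in control, a difference of 5.55 ± 0.68 (adjusted p = 0.0021). The members that fell with IL-6 fell further in control. They were the cathepsin Z gene Ctsz (-0.93 against -4.96, adjusted p = 0.022 with IL-6) and the saposin precursor gene Psap (-0.58 against -2.66, adjusted p = 0.013). The Ctsz call with IL-6 ended without D1-IL6 replicate 1 (0.074), D1-IL6 replicate 2 (0.15) or D2-IL6 replicate 1 (0.11), and that of Psap without D1-IL6 replicate 2 (0.11) or D2-IL6 replicate 2 (0.056). Neither was called after centring. Legumain, Lgmn, and the acid lipase gene Lipa rose with IL-6, by 3.70 and 1.45, and Lgmn rose by 3.99 in control.

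Receptors of microbial RNA and of antibodies included genes that rose with IL-6. Of 18 members 7 rose and 1 fell with IL-6, 1 rose and 13 fell in control, and 10 passed the difference test, or 6 without D1-Control replicate 2 or without D1-IL6 replicate 1. Tlr7, an endosomal sensor gene of single-stranded RNA, read 9.43 and 9.39 at D1-IL6 and 11.59 and 11.07 at D2-IL6, up by 1.92 ± 0.43 (limma adjusted p = 0.0058), and fell by at least 2.20 in control. Tlr13, a sensor gene of bacterial ribosomal RNA, read 8.69 and 9.23, then 10.73 and 11.01, up by 1.91 ± 0.34 (adjusted p = 0.0015), and fell by at least 0.60 in control. In both genes the D2-IL6 arrays lay above all 6 other cultured arrays. The Fc receptor gene Fcgr3 read 12.08 and 12.70, then 13.004 and 12.95, which was no called change, and fell by 5.06 in control, where 1 D2 array lay near background. The shared signalling chain gene Fcer1g changed by 0.60 with IL-6 and fell by at least 2.14 in control, and passed as a rise of 1.18 with IL-6 after quantile normalization. Ly96, the cofactor gene of the lipopolysaccharide receptor, rose by at least 2.05 with IL-6 and showed no called difference from control (2.57 there).

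Counts of the other myeloid lists stand beside the 13% of named probe sets that rose with IL-6 and the 20.2% that fell. In control 23.5% of named probe sets fell, and 1.17% passed the difference test upward. Of 17 neutrophil genes 3 rose and 1 fell with IL-6, 6 fell in control, and 3 passed the difference test. Of the 17, 9 lay near background in all 8 arrays. Mmp8, a neutrophil collagenase gene, read 13.87 and 14.04 at D1-IL6 and 15.19 and 14.84 at D2-IL6, a change of 1.06 ± 0.40 (limma adjusted p = 0.067) that passed after centring (1.31, adjusted p = 0.032), when only the 4 IL-6 arrays were fitted (0.0016) and with dim probe sets left out (0.035). In control it fell by at least 4.44, and the difference was 6.52 ± 0.57 (adjusted p = 3.79e-04). Csf3r, the receptor gene of granulocyte colony-stimulating factor, changed by -0.12 with IL-6 and fell by at least 1.90 in control. The siderocalin gene Lcn2 rose by 1.35 with IL-6 (limma adjusted p = 0.0037), but not as a call when all 20 arrays shared 1 fit (0.20). Its difference from control was not called, except after quantile normalization (2.58, adjusted p = 0.016). The secondary granule gene Ngp fell by at least 1.54 with IL-6, and S100a8 changed by 0.25 ± 0.60 (adjusted p = 0.78). Of 12 myeloid transcription factor genes 1 rose, 0 fell and 11 had no call with IL-6, and 8 of the 12 lay near background in all 8 arrays.

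Spi1, the gene of the factor PU.1, read 14.00 and 14.38 at D1-IL6 and 13.99 and 13.55 at D2-IL6, a change of -0.42 ± 0.48 (95% interval -1.49 to 0.64). In control 12.94 and 13.90 became 9.87 and 8.13. Its difference of 4.0 ± 0.68 (limma adjusted p = 0.017) was not called without D1-Control replicate 2 (0.095), D1-IL6 replicate 1 (0.12), D1-IL6 replicate 2 (0.071) or D2-IL6 replicate 1 (0.074). Irf8, a factor gene of monocyte and dendritic progenitors, changed by -0.82 ± 0.31 (adjusted p = 0.063), and passed as a fall without D2-IL6 replicate 1 (-1.09, adjusted p = 0.042). Cebpa lay near background in all 8 arrays. Of 16 macrophage genes 3 rose with IL-6, 3 fell in control, and 11 lay near background in all 8 arrays. Adgre1, a member that failed to fall, read 7.94 and 8.93 at D1-IL6 and 9.72 and 9.53 at D2-IL6. The rise was 1.19 ± 0.36 (limma adjusted p = 0.026). In control Adgre1 fell by at least 1.11, and the difference was 2.66 ± 0.50 (limma adjusted p = 0.030). Adgre1 is left out of the counts of named genes and named differences below. Axl, a receptor kinase gene of that list, read 6.00 and 5.87 at D1-IL6 and 6.33 and 6.91 at D2-IL6, all near background, whereas it read 8.04 and 8.77 at D1-Control and 5.04 and 4.63 at D2-Control, a difference of 4.26 between the changes. Of 9 antigen presentation genes of MHC class II limma called 0 with IL-6 (3 at an unadjusted p under 0.05), and 6 fell in control. H2-DMb1, a peptide loading subunit gene, changed by 0.03 ± 0.36 with IL-6 and by -3.94 in control.

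Over the 10 myeloid lists, 77 of 134 distinct genes fell in control and 13 fell with IL-6, while 25 rose with IL-6. Over all named probe sets 23.5% fell in control, 20.2% fell and 13% rose with IL-6, and 0.961% failed to fall. The lists were chosen with earlier results of these data known, so their counts are not independent evidence. By the definition above 43 of the 77 failed to fall with IL-6, 8 of which were called as rises with IL-6. A further 12 fell in both, and 22 were called as falls in control but not with IL-6 and did not pass the difference test. For those 22 a missed call with IL-6 does not show that the gene held level. The 43 genes had a median change of 0.29 with IL-6 (range -1.02 to 1.92) and of -3.85 in control (range -6.43 to -1.33). Of the 43, 38 lay above background in both D1-IL6 arrays and 4, Axl among them, near background in both, so that a fall with IL-6 could not have been read for those 4. At D2, 39 lay above background in both D2-IL6 arrays, and 26 lay near background in both D2-Control arrays, where the size of the fall is only bounded. The count was 28 without D1-Control replicate 2 and 17 when all 20 arrays of the series shared 1 fit. In that fit 14 of the 32 differences named here were called and 18 were not (adjusted p from 0.050 to 1.0), the latter for Elane, Ctsc, Csf3r, Ly6c2, Ccr2, Ms4a6d, Lgals3, Emb, Itgam, Cybb, Psap, Tlr7, Fcer1g, Axl, H2-DMb1, Il4ra, Slc2a1 and Pkm. The upward differences then numbered 6 in the monocyte list, 4 among lysosomal genes, 4 among pattern recognition and Fc receptors and 1 among NADPH oxidase genes.

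**Figure D4:**
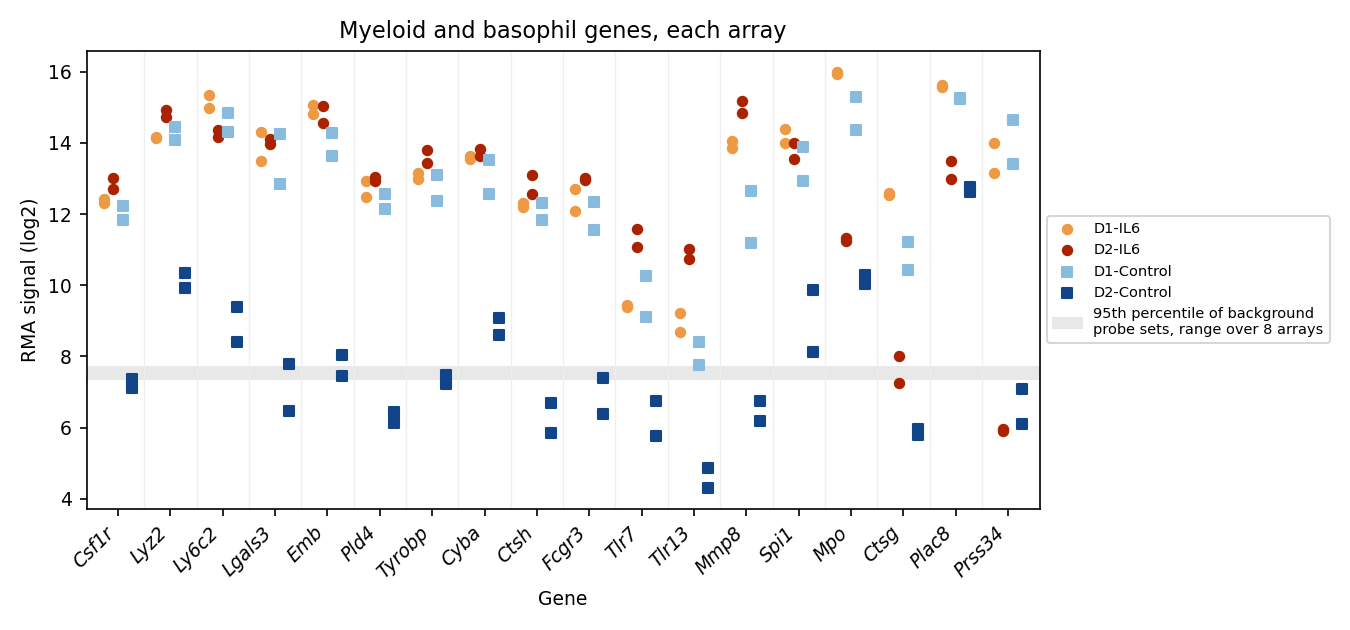
RMA signal (log2, vertical axis) of 18 myeloid and basophil genes (horizontal axis) in each of the 8 cultured arrays, with circles for IL-6 and squares for control, light for D1 and dark for D2, and the background level as a grey band. From Csf1r to Spi1 the dark squares of D2-Control lie below the other 6 arrays, whereas for Mpo, Ctsg, Plac8 and Prss34 both dark symbols lie below both light ones.

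Promoter letters of 3 genes with different courses under IL-6 are shown, Mpo, which fell, Ctsc, which stayed level, and Tlr13, which rose. Each holds GAGGAA, a core bound by PU.1, in the 250 bases before its RefSeq start (GRCm38.p6, plus strand, 5′ to 3′). The letters or their reverse complement are in capitals, and the windows are chr11:87793534-87793783, chr7:88277835-88278084 and chrX:106143025-106143274.
Mpo: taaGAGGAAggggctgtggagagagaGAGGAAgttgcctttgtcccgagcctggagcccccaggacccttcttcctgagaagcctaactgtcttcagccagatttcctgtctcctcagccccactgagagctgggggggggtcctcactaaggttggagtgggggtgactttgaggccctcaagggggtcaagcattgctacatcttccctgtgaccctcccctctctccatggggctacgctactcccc
Ctsc: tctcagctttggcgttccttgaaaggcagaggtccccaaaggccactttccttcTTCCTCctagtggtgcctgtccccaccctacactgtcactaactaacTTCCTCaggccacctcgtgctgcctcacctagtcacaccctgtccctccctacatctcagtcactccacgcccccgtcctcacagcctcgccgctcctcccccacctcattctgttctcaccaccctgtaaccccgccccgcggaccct
Tlr13: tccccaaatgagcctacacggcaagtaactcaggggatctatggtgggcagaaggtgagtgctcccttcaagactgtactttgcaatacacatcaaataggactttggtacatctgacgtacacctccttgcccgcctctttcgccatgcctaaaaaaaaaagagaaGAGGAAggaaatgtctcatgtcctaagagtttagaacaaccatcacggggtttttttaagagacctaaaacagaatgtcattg
Searched on both strands, GAGGAA stood in 25.9% of all genes with an entry and in 14 of the 32 genes with an entry (43.8%) among the 43 that failed to fall. It stood in 6 of 9 primary granule genes (66.7%), most of which fell, and in 4 of 14 monocyte genes (28.6%). Lists outside the myeloid ones lay on both sides of 25.9%, such as 4 of 9 megakaryocyte and platelet genes (44.4%) and 3 of 19 DNA replication genes (15.8%). Neither GAGGAA nor AGATAA contains the other, but a window can hold both. The Alas2 window above also holds GAGGAA, left there in small letters. A match describes letters, not a bound site.

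The 3 downward differences were those of Il4ra, Slc2a1 and Lipf. Of 13 cytokine receptor genes 4 rose and 0 fell with IL-6, 4 rose and 6 fell in control, and 1 passed the difference test upward and 1 downward. Il4ra, the interleukin 4 receptor gene, read 11.69 and 11.54 at D1-IL6 and 15.53 and 15.39 at D2-IL6, a rise of 3.85 ± 0.26 (limma adjusted p = 1.78e-06). In control it rose from 10.13 and 9.27 to 15.68 and 15.21, so the D2 arrays of both treatments overlapped and the D1 arrays did not. The difference of -1.89 ± 0.37 (adjusted p = 0.040) held without D1-Control replicate 1 and was not called without any other single array (0.083 without D1-Control replicate 2, 0.21 and 0.14 without D1-IL6 replicates 1 and 2, 0.15 and 0.056 without D2-Control replicates 1 and 2, and 0.097 and 0.13 without D2-IL6 replicates 1 and 2). Slc2a1, the glucose transporter GLUT1 gene, went from 12.35 and 11.99 to 18.30 and 18.25 with IL-6 and from 10.71 and 10.62 to 18.48 and 18.33 in control, a difference of -1.63 ± 0.19 (adjusted p = 0.0015). Csf2rb and Il10rb rose with IL-6 by 3.11 and 3.44, without a called difference from control. Lipf is outside the naming rule, was named after its values were seen, and had means of 4.75 in D1-IL6 and 4.44 in D2-IL6, near background.

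Markers of other cell types that marrow could hold are given beside the 33.2% of named probe sets called in either direction with IL-6. Of 13 T and NK cell genes 1 rose and 1 fell with IL-6, of 9 B cell genes 1 rose and 2 fell, and of 10 dendritic cell genes 1 rose and 3 fell. Of 13 stroma and endothelium genes 3 rose and 1 fell, and of 13 megakaryocyte and platelet genes 3 rose and 3 fell. In all 8 arrays 9 of the T and NK cell genes, 6 of the B cell genes, 5 of the dendritic cell genes and 9 of the stroma and endothelium genes lay near background. The collagen receptor gene of platelets, Gp6, read 5.32 and 4.69 at D1-IL6 and 11.77 and 11.52 at D2-IL6, a rise of at least 4.02, with at least 4.33 in control. Stem and progenitor genes included 1 rise and 4 falls among 13, against 2 rises and 8 falls in control. Cd48, a surface antigen gene of progenitors and leukocytes, was the member of that list that passed the difference test. It read 12.44 and 12.51 at D1-IL6 and 12.18 and 11.80 at D2-IL6, while in control 11.78 and 12.33 became 7.59 and 7.06. The difference was 4.25 ± 0.40 (limma adjusted p = 5.53e-04).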

How the data were processed

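Total RNA was amplified and hybridised to Mouse Clariom S arrays. The values were deposited by the authors as log2 signals after RMA in Affymetrix Expression Console, per the submitters' processing notes, with no version given in the sources used here. Between the 8 cultured arrays the median signal above background ran from 9.97 to 10.55.

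Of 28846 probe sets, 19572 carried 1 gene symbol in the platform annotation (19505 genes) and were tested. In R 4.3.3, limma 3.58.1 (lmFit, eBayes with an intensity trend) fitted the 8 cultured arrays by group, with 2-sided tests and Benjamini-Hochberg adjustment over all 19572 at 0.05. The script was tested on simulated data. "Near background" means below the 95th percentile of 23 background probe sets of that array. A change is given as "at least" where both arrays of the lower group lay near background. The difference between IL-6 and control is the interaction contrast.

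Lists were counted, not tested as sets. Genes named were the 10 highest and lowest changes with IL-6, the 10 highest differences and the lowest that qualified, each without overlap between groups and above background, besides list members that passed and defining members. Members and lists were chosen with earlier results of these data known. Alternatives were another normalization, centring, variance model, set of arrays, filter, probe sets tested, size of change, and each array left out. With 2 arrays a group, an exact permutation test cannot reach 0.05. Adult globins and some other listed genes are not analysed here. Promoters came from RefSeq (GRCm38.p6).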

Additional observations from a re-analysis of the deposited data

Results flagged for a closer look

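The following genes are given because their D2 minus D1 change with IL-6 differed from that in control by the interaction test in limma (adjusted p under 0.05), each value being the IL-6 change minus the control change on the log2 scale. For 10 monocyte genes the values were 4.78 for Ly6c2, 5.30 for Csf1r, 3.81 for Ccr2, 4.81 for Lyz2, 4.94 for Ms4a6d, 6.57 for Lgals3, 6.06 for Emb, 6.35 for Pld4, 3.94 for Itgam and 5.93 for Tyrobp. Among neutrophil and granule genes the values were 6.52 for Mmp8, 4.01 for Csf3r, 3.02 for Ctsc and 2.55 for Elane.

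Oxidase genes gave 4.35 for Cyba and 5.24 for Cybb. Lysosomal genes gave 6.37 for Ctsh, 4.03 for Ctsz, 2.75 for Grn, 2.08 for Psap and 5.55 for Gm2a. Receptor genes of pathogen sensing and antibody binding gave 5.35 for Tlr7, 5.41 for Tlr13, 5.65 for Fcgr3 and 3.43 for Fcer1g. Other values were 4.26 for Axl, 3.98 for H2-DMb1, 3.995 for Spi1, 4.25 for Cd48 and 4.62 for Pkm. The change was lower with IL-6 for Il4ra (-1.89) and Slc2a1 (-1.63). No explanation was tested for these differences.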

How the results depend on the processing

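Of 158 changes and differences of named genes, 100 kept their direction and their side of the threshold under all of the alternatives run, of which there were 16. Centring on the median above background gave 12716 calls in control, and fitting all 20 arrays together gave 4291 calls with IL-6, 54 differences between IL-6 and control, and 17 myeloid genes that failed to fall. Leaving out 1 array at a time gave 118 to 230 differences and 28 to 39 such myeloid genes. The count of differences was 120 without D1-Control replicate 2, and 118 and 134 without D1-IL6 replicates 1 and 2. In the fit of all 20 arrays 74 of 96 called changes of named genes with IL-6 were still called, and 22 were not (adjusted p from 0.053 to 0.77). That fit takes each gene's spread from the DWT and DKO arrays as well as the cultured ones. The cause of the lost calls was not tested.

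The changes that turned sign were small and not called. With quantile normalization they were 0.182 for Gata1, 0.255 for Ctsc, 0.489 for Csf3r and -0.106 for Socs3. With centring they were 0.159 for Tfrc, 0.218 for Ctsc, 0.128 for Csf3r and 0.103 for Emb. Leaving out 1 array gave -0.233 to 0.051 for Tfrc, -0.118 to 0.054 for Ctsc, -0.264 to 0.548 for Lgals3, -0.386 to 0.092 for Emb, -0.021 to 0.235 for Cebpa, -0.209 to 0.273 for H2-DMb1 and -0.53 to 1.027 for S100a8.

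No paired analysis was possible because no label ties an array to a mouse; the replicate numbers used here only name arrays. Signal near background limits the size of many falls, and 2 arrays a group limit the precision of all values.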

Other observations

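Some of the highest rises with IL-6 lay outside the lists described so far. Tcp11l2 read 6.69 and 6.25 at D1-IL6 and 15.78 and 15.79 at D2-IL6, a rise of at least 8.17, with at least 8.51 in control. Dst, a cytoskeletal linker gene, rose by at least 6.73, and the receptor gene Calcrl by at least 7.56. The microtubule end-binding gene Mapre3 rose by at least 4.58, and the membrane protein genes Tmcc2 and Tmem140 by 7.55 and 6.90. The rule that named these genes required the D2-IL6 arrays to lie above the D1-IL6 arrays, so that separation is not a result. Their difference from control was not called.

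Interferon response genes split. Of 17 members 6 rose and 3 fell with IL-6, and 7 rose and 5 fell in control. Rsad2, an antiviral gene, read 5.14 and 5.41 at D1-IL6 and 14.30 and 14.14 at D2-IL6, a rise of at least 6.598, with at least 6.56 in control. Oasl2, of the oligoadenylate synthetase family, rose by at least 4.27. Of 12 genes of the p53 pathway and apoptosis 7 rose and 2 fell, among them Trp53inp1 at 6.48 ± 0.29 (limma adjusted p = 9.03e-08). Of 20 NF-kB and inflammation genes 6 rose and 1 fell, and of 15 IL-6 and STAT3 response genes 4 rose and 2 fell, beside 33.2% of named probe sets called in either direction. Socs3, the feedback gene of STAT3 signalling, lay near background in all 8 cultured arrays, at 5.0 and 4.95 in D1-IL6 and 5.16 and 5.05 in D2-IL6.

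Of 17 glycolysis genes 10 fell and 2 rose, with 7 falls after quantile normalization and 9 after centring. Of 16 cholesterol synthesis genes 8 fell and 1 rose, but 4 fell and 2 rose after quantile normalization, and 3 fell and 2 rose after centring. Pkm, a pyruvate kinase gene of cells outside the mature erythroid lineage, read 12.91 and 12.78 at D1-IL6 and 12.91 and 13.20 at D2-IL6, while in control 11.55 and 12.16 became 7.63 and 7.24.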
